A study of Rattus norvegicus with 6 samples.

Results

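The rodent prolactin family and its receptor were examined in the rat mammary tumour line LN4D6, with and without CREB3L1. Of the 10 genes chosen, Prl8a9, Prl8a2, Prl8a5, Prl2c1, Prl3b1, Prl3d1, Prl5a1, Prl7b1, Prl and Prlr, 7 were read by 10 of the 31099 probe sets on the array, each annotated with that gene symbol alone. Prl8a5 was read only by a probe set shared with Prl8a4, and Prl2c1 and Prl3d1 had no probe set under their symbol. The members were selected on the measured difference of Prl8a9 between these groups, the highest log2 difference among 7574 genes above background in both, so their levels and differences are given as a description. No p-value is given for a member. The count of members past the threshold stands below beside the same count over all probe sets, except under alternative settings.

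Total RNA of 3 LN4D6 samples transfected with CREB3L1 and 3 untransfected LN4D6 samples, grown under the same conditions, was hybridised to Affymetrix 3' expression arrays. CREB3L1 is made as a protein of the endoplasmic reticulum membrane, and proteolysis frees the part that enters the nucleus and acts as a transcription factor. The controls received no empty vector, and neither the construct nor whether the transfected cells were a clone or a pool is given in the sources used here. All levels are log2 expression values, all differences are CREB3L1 minus untransfected on that scale, and a log2 value of 5 was taken as the background level.

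In rats and mice the prolactin gene has been copied many times, and the copies sit side by side in a cluster. Prolactin itself is a hormone of the pituitary lactotroph, while most of the other members are secreted by trophoblast cells of the placenta or by the decidua, the lining of the pregnant uterus. Prolactin and the placental lactogens bind the prolactin receptor Prlr, a cytokine receptor that acts through the kinase JAK2 and the transcription factors STAT5A and STAT5B and is known in the mammary gland for turning on milk protein genes. Many of the other family proteins are not known to use that receptor.

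Of the 6 arrays, CREB3L1 replicate 3 stood apart, with Pearson correlations to the others of 0.984 to 0.988 across probe sets, against 0.996 to 0.999 among the other 5. The gap between its 3' and 5' probe sets for Gapdh was 4.77, against -0.16 to -0.10 on the other 5 arrays, so the value without it is given beside each gene above background that is described with a difference, where it changes the call or moves that difference by over 1.5 times. The single Creb3l1 probe set was below background, at 3.39 ± 0.03 in CREB3L1 cells and 3.36 ± 0.02 in untransfected cells (SD, n = 3 each), and it may not read the construct, so this value is no check on the labels. Of the basal mammary markers, 4 of 10 measured were above background (Krt5, Krt14, Acta2 and Tp63), and of the luminal markers 2 of 16 were (Krt8 and Gata3), with Epcam, Cdh1, Krt18 and Esr1 below it. Of the fibroblast markers 2 of 10 were above it (Col3a1 and Vim), and of endothelial, adipocyte and leukocyte markers 1 of 13 (Csf1r). Over all genes, 7714 of 14217 were above it in a group. The labels do not say whether the samples are separate cultures, and the p-values cover only the spread among these arrays, which may be technical.

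The windows at the starts of the 4 family genes with signal, Prl8a9, Prl8a7, Prl5a1 and Prl7a3, are shown with that of Prl8a4, the family window most like that of Prl8a9, whose own probe sets stayed below background. Each runs 5′ to 3′ on the gene's strand from 250 bases before the annotated start to 50 after it, from RefSeq on build GRCr8, and capitals mark matches to the motifs named after the sequences.
Prl8a9, chr17:37503200-37503499, plus strand: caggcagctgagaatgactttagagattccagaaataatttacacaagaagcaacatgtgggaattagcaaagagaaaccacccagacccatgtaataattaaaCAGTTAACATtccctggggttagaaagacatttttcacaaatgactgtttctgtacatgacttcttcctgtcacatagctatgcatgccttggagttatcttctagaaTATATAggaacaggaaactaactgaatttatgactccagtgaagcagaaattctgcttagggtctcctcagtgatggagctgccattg
Prl8a7, chr17:37766960-37767259, plus strand: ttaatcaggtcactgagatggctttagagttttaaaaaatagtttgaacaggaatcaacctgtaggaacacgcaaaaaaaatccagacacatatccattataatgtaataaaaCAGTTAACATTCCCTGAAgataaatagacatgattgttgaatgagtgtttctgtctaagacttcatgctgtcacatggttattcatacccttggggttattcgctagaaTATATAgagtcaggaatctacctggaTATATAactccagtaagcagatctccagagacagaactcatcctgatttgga
Prl7a3, chr17:37294314-37294613, plus strand: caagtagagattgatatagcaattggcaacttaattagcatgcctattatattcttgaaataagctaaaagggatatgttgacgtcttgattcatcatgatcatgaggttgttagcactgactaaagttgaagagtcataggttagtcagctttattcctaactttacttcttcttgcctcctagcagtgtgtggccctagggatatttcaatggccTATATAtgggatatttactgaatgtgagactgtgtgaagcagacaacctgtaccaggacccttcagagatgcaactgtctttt
Prl8a4, chr17:37638101-37638400, plus strand: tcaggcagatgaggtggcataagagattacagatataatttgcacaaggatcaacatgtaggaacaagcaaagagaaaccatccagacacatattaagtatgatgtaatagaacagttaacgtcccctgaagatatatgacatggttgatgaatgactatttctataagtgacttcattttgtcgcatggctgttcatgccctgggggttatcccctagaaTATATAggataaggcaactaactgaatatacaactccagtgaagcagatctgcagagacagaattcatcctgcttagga
Prl5a1, chr17:36801552-36801851, minus strand: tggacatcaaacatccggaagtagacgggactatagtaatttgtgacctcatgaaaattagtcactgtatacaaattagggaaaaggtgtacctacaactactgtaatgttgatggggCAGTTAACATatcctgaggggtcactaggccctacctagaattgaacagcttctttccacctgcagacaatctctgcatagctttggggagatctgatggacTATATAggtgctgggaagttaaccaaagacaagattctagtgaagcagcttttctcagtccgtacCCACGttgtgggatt

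Both strands of the family's windows were searched for 4 motifs: TGACGTCA, the cAMP response element; TGACGTG, a related element of the unfolded protein response; CCACG, which ends the endoplasmic reticulum stress element; and TTCNNNGAA, the STAT5 type of site. TGACGTCA was in 0 of 23 family windows and in 1.83% of 33469 windows of the same length, and TGACGTG was in 0 of 23 and in 1.81%. CCACG was in 4 of 23 family windows, Prl5a1 among them, against 31.6% of all windows. TTCNNNGAA was in 5 of 23, Prl8a7 and Prl itself among them, against 8.87%. None of the 4 was in the Prl8a9 window.

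A pair of further motifs was added after the windows had been read. TATATA, the letters of a TATA box, was in 19 of 23 family windows and in 6.15% of all windows. In Prl8a9 it ran from -38 to -33, counted with 0 at the first base of the gene. CAGTTAACAT, the longest stretch that the Prl8a9, Prl8a7 and Prl5a1 windows share, was in 5 of 23 family windows, those of Prl8a9, Prl8a7, Prl5a1, Prl8a5 and Prl8a3, and in 0.0538% of all windows. The windows that defined the stretch hold it by that choice, and the Prl8a windows are alike, so nothing is read from these shares. In Prl8a7 the last base of the stretch is the first base of the TTCNNNGAA match. Prl8a3 carried the stretch and was below background, Prl7a3 had signal and lacked it, and Prl8a5 carried it and had no probe set of its own. Whether the stretch bears on the signal was not tested. The Prl8a9 window aligned with that of Prl8a4 at 71.4% identity and with that of Prl8a7 at 68.5%, while the median over 253 family pairs was 47.8%. A match is a description of the letters and not of a bound site.

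Prl8a9 and Prl5a1 were the members above background, 2 of 10 probe sets, against 38.9% of all probe sets, and they differed in opposite directions. Prl8a9, known as prolactin-like protein C-beta of the placenta, is read by probe set 1367841_a_at and lies on chromosome 17 at 37503450 to 37509258. It stood at 13.06, 12.92 and 12.86 in the 3 CREB3L1 samples, against 10.16, 10.12 and 9.90 in the 3 untransfected samples. All CREB3L1 samples were above all untransfected samples, which the choice of Prl8a9 by this difference favours. The means were 12.95 ± 0.10 in CREB3L1 cells and 10.06 ± 0.14 in untransfected cells (SD, n = 3 each), a difference of 2.89 ± 0.09 (SE), or 7.40-fold. CREB3L1 replicate 3 lay close to the other 2 CREB3L1 samples, and without it the difference was 2.93. Prl8a9 was thus well above background in untransfected cells too.

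Prl5a1, also called prolactin-like protein L, is a placental member of the family read by probe set 1370480_at, at 36794163 to 36801601 on the same chromosome. It stood at 6.77, 6.68 and 6.68 in the CREB3L1 samples, against 7.91, 7.69 and 7.61 in the untransfected samples. All CREB3L1 samples were below all untransfected samples. The means were 6.71 ± 0.05 in CREB3L1 cells and 7.74 ± 0.16 in untransfected cells (SD, n = 3 each), a difference of -1.03 ± 0.09 (SE), or 2.04-fold lower, and -1.01 without CREB3L1 replicate 3. In such bulk samples fewer cells making a transcript and less of it per cell cannot be told apart.

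**Figure D1:**
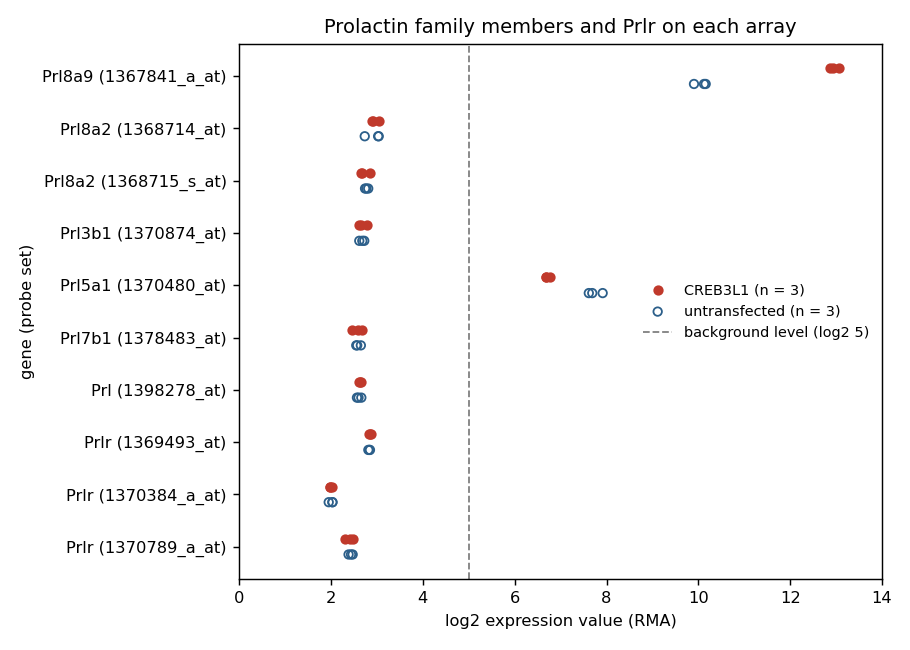
The log2 expression value of each of the 10 member probe sets (rows) on each array, with filled points for CREB3L1 and open points for untransfected samples (n = 3 each) and the background level of log2 5 as a dashed line. Prl8a9 and Prl5a1 lie right of the line and their groups do not overlap, while the other 8 probe sets lie at 3.04 or less.

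The other members with a probe set were silent by this measure. Prl, prolactin itself, was at 2.64, 2.61 and 2.62 in CREB3L1 samples, against 2.56, 2.66 and 2.60 in untransfected samples. Prl3b1, placental lactogen II, was at 2.65, 2.61 and 2.78 in CREB3L1 samples, against 2.61, 2.68 and 2.72 in untransfected samples. Neither Prl nor Prl3b1 was above background in any sample, and Prl3d1, placental lactogen I, was not measured under its own symbol. Prl8a2, the decidual prolactin-related protein, was read by 2 probe sets with means of 2.95 ± 0.08 and 2.73 ± 0.10 in CREB3L1 cells, against 2.93 ± 0.17 and 2.77 ± 0.03 in untransfected cells (SD, n = 3 each). Prl7b1, a member made by trophoblast, averaged 2.57 ± 0.11 in CREB3L1 cells and 2.59 ± 0.05 in untransfected cells (SD, n = 3 each). The probe set shared by Prl8a5 and Prl8a4 averaged 4.25 ± 0.24 in CREB3L1 cells and 4.34 ± 0.18 in untransfected cells (SD, n = 3 each), reached at most 4.51, and cannot say which of the genes it read.

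Prlr, on chromosome 2 at 60861391 to 61051883, was below background on each of its 3 probe sets. The probe set 1369493_at gave 2.85, 2.84 and 2.88 in CREB3L1 samples, against 2.81, 2.85 and 2.83 in untransfected samples. The other 2 ran from 1.97 to 2.02 and 2.31 to 2.47 over the CREB3L1 samples, with 1.95 to 2.03 and 2.38 to 2.47 over the untransfected samples. The groups overlapped on all 3. A receptor transcript was not detectable in either group at the sensitivity of these probe sets.

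Across the 8 silent member probe sets the differences ran from -0.04 to 0.02, and values from 1.95 to 3.04 on every array. The nearest value above the level of 5 was that of Prl5a1 at 6.68, and the nearest below it was 3.04, or 4.51 with the probe set shared by Prl8a5 and Prl8a4. By limma with Benjamini-Hochberg adjustment over 31042 probe sets, 1 of the 10 member probe sets passed as higher and 1 as lower, and 1.39% of all probe sets passed in either direction (0.425% higher and 0.963% lower). Of probe sets above background in a group, 3.35% passed. Groups did not overlap for 2 of the 10, against 14.3% of all probe sets and 29.5% of those above background in a group. The members were chosen with this comparison known, so nothing is read from either count.

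Among the family genes that were not members, Prl8a7 and Prl7a3 were also above background. Prl8a7, prolactin-like protein D, another gene of the 8a group whose start lies 263.8 kb from that of Prl8a9, was at 11.99, 11.87 and 11.77 in CREB3L1 samples, against 11.23, 11.38 and 11.06 in untransfected samples. Its groups did not overlap, and the difference was 0.65 ± 0.10 (SE), or 1.57-fold. It did not pass the test with 6 arrays (limma adjusted p = 0.0598), and it passed without CREB3L1 replicate 3, where the difference was 0.71 (limma adjusted p = 0.0308). Over 12 alternatives, an ordinary per-probe-set test among them, the adjusted p ran from 0.0308 to 0.23.

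Prl7a3, prolactin-like protein F, was at 9.16, 8.84 and 8.89 in CREB3L1 samples, against 9.28, 9.21 and 9.16 in untransfected samples. The highest CREB3L1 value and the lowest untransfected value differed by little, and the difference of -0.25 ± 0.09 (SE) did not pass the test (limma adjusted p = 0.471). The probe sets of Prl8a7 and Prl7a3 were designed on expressed sequence tags, so their gene names rest on the platform annotation. Whether the differences of Prl8a9 and Prl8a7 differ from each other was not tested, and whether their probe sets share signal could not be checked.

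**Figure D2:**
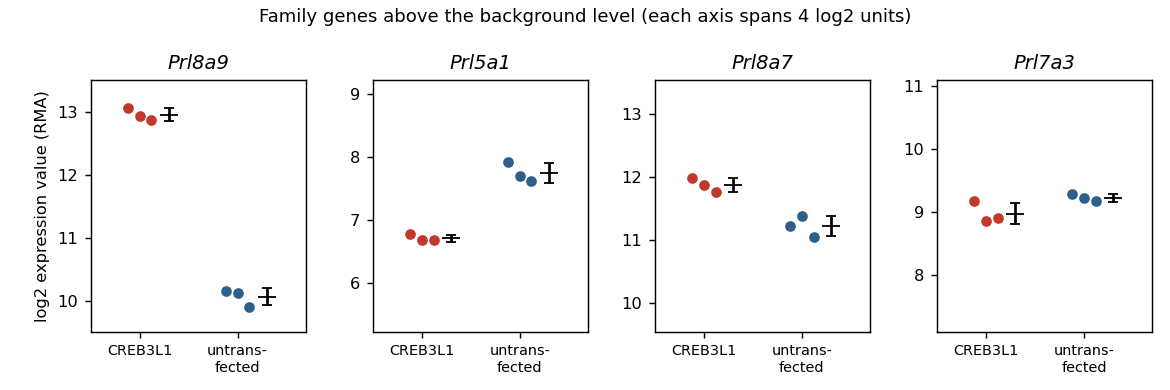
Log2 expression values of the family genes above background, 1 point per array, with the mean and SD (n = 3) beside each group, CREB3L1 left of untransfected. Each axis spans the same number of log2 units, so the gap of 2.89 for Prl8a9 can be set beside those of -1.03 for Prl5a1, 0.65 for Prl8a7 and -0.25 for Prl7a3.

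The remaining family genes measured, 11 in number, gave values of 2.24 to 4.70 on 12 probe sets, all below background. Among them were Prl4a1, known in the rat placenta for acting on natural killer cells, Prl6a1 of the decidua and Prl3d4, a variant of placental lactogen I. Prl8a4 came nearest to the level, at 4.44 ± 0.33 in CREB3L1 cells and 4.53 ± 0.18 in untransfected cells (SD, n = 3 each) on its brighter probe set. Differences over the 12 ran from -0.09 to 0.01. Growth hormone, Gh1, the distant relative of prolactin, and its receptor Ghr were below background too. Of the 15 genes measured in this list of 20, which takes in Gh1 and Ghr, 0 passed the test in either direction with 6 arrays, 2 had an unadjusted p below 0.05, and 1, Prl8a7, passed without CREB3L1 replicate 3. The median difference of the list was -0.03, against -0.01 over all 14217 genes, of which 2.1% passed, 0.577% higher and 1.52% lower.

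In chromosome order the genes with signal did not form a block. The cluster holds 25 loci with a Prl symbol, which are counted here as the family. Of these, 24 are protein-coding, over 1637 kb of chromosome 17 on GRCr8, and 19 were measured. The 4 above background, Prl5a1, Prl7a3, Prl8a9 and Prl8a7, spread over 973 kb, with 8 measured family genes below background between them. The measured genes on either side of Prl8a9, Prl7b1 at -92.8 kb and Prl3d4 at 30.7 kb from its start, were both below background in both groups. Rpl-1, inside the cluster but without a Prl symbol, was below background as well, at 2.50 ± 0.07 in CREB3L1 cells and 2.50 ± 0.05 in untransfected cells (SD, n = 3 each).

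Genes flanking the cluster did not pass the test. Sox4, a transcription factor gene on the Prl5a2 side, averaged 11.60 ± 0.17 in CREB3L1 cells and 11.32 ± 0.06 in untransfected cells (SD, n = 3 each), with a difference of 0.29 (limma adjusted p = 0.383), or of 0.19 without CREB3L1 replicate 3 (limma adjusted p = 0.17). Cdkal1, a tRNA-modifying enzyme gene farther out, differed by -0.26 ± 0.12 (SE; limma adjusted p = 0.654). LOC100909866 on that side and Hdgfl1 and Nrsn1 on the other were below background.

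**Figure D3:**
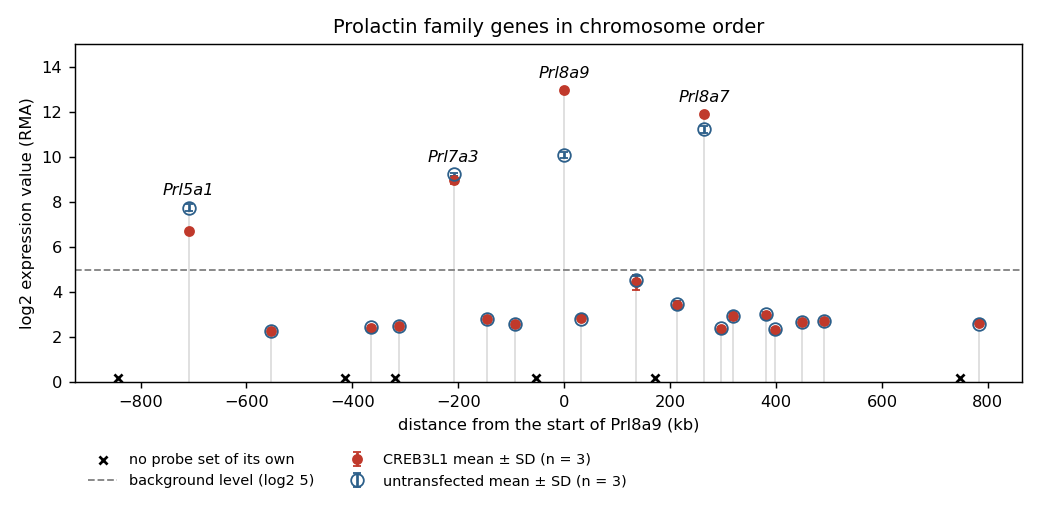
Log2 expression values (mean ± SD, n = 3) of the 19 measured family genes against distance in kb from the start of Prl8a9, with crosses for the 6 loci without a probe set of their own. Signal above the dashed level appears at 4 separate genes with silent genes between them, and the groups separate most at Prl8a9.

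By the root-mean-square distance over 6 arrays between profiles centred on the untransfected mean, the 5 genes most like Prl8a9, of 7573 with both groups above background, were Slc17a6, Jam3, Mmrn2, Peg12 and Nap1l2. Slc17a6, a vesicular glutamate transporter gene, was the nearest, at a distance of 0.27, with 10.60, 10.70 and 10.84 in CREB3L1 samples, against 8.37, 7.89 and 8.03 in untransfected samples. The others lay at distances of 0.44 to 0.67, and their levels in CREB3L1 cells were higher by 5.42-fold for Jam3, 4.92-fold for Mmrn2, 4.17-fold for Nap1l2 and 4.01-fold for Peg12. All 5 were higher in every CREB3L1 sample than in any untransfected sample, which the measure favours, so this is a description of likeness only.

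Markers of the cells that usually make these hormones were mostly below background. Over all 14217 genes, 6503 were below it in both groups. Of 9 pituitary lactotroph markers measured, 0 were above it, including the transcription factor gene Pou1f1. Of 12 decidual markers, the member Prl8a2 among them, 3 were above it (Wnt4, Hoxa10 and Fkbp5), and Hand2, Bmp2 and Pgr were not. Of 14 trophoblast markers, Cdx2 and Rhox5 were above it, while Gcm1, Hand1, Ascl2, Eomes and Tpbpa were below it in both groups. The summed level of the trophoblast list, on the linear scale, was 33325 to 36762 in CREB3L1 samples, against 28641 to 32369 in untransfected samples. Rhox5, a homeobox gene, made up most of it, at 14.99 ± 0.11 in CREB3L1 cells and 14.80 ± 0.10 in untransfected cells (SD, n = 3 each), and its difference was 0.18 with 6 arrays and 0.12 without CREB3L1 replicate 3. None of these markers passed the test, with 6 arrays or without CREB3L1 replicate 3, and the part of that sum in the Prl8a9 difference was not tested.

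Downstream of the receptor, Jak2 was above background and the STAT5 genes were below it. Of 21 measured kinases, STATs and adaptors of prolactin signalling, 12 were above background and 0 passed the test with 6 arrays, with 1 at an unadjusted p below 0.05 (limma, Benjamini-Hochberg adjustment). Stat5a averaged 3.52 ± 0.19 in CREB3L1 cells and 3.42 ± 0.05 in untransfected cells, and Stat5b 2.12 ± 0.10 in CREB3L1 cells and 2.17 ± 0.07 in untransfected cells (SD, n = 3 each), all below background. Stat3, a STAT that many cytokine receptors use, was above it at 11.58 ± 0.30 in CREB3L1 cells and 11.61 ± 0.25 in untransfected cells (SD, n = 3 each), a difference of -0.03, or of -0.20 without CREB3L1 replicate 3 (limma adjusted p = 0.814). The list's median difference was -0.01, the same as over all genes.

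Jak2, the kinase bound to Prlr, was at 7.97, 7.98 and 6.81 in CREB3L1 samples, against 7.09, 7.38 and 7.20 in untransfected samples. CREB3L1 replicate 3 lay below the untransfected samples and the other 2 above them. The difference was 0.37 ± 0.34 (SE) with 6 arrays and did not pass, and it was 0.76 without CREB3L1 replicate 3, where it passed (limma adjusted p = 0.0178, and 0.0178 to 1 over 12 alternatives). Jak1, a kinase of other cytokine receptors, differed by -0.30 ± 0.07 (limma adjusted p = 0.183), and the adaptor gene Shc1 by -0.29 ± 0.13 (limma adjusted p = 0.633), or by -0.15 without CREB3L1 replicate 3 (limma adjusted p = 0.41). A second, dimmer Jak1 probe set gave -1.02 ± 0.85 with 6 arrays and -0.06 without CREB3L1 replicate 3.

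The genes listed as brakes on the pathway showed no call. Of 15 measured, 11 were above background and 0 passed the test, with 3 at an unadjusted p below 0.05. The phosphatase gene Ptpn11 had the smallest p, with a difference of 0.24 ± 0.05 (limma adjusted p = 0.143), followed by the suppressor gene Socs6 at 0.23 ± 0.06 (limma adjusted p = 0.218). A dimmer Ptpn11 probe set gave 0.28 ± 0.21 with 6 arrays (limma adjusted p = 0.990) and 0.51 without CREB3L1 replicate 3, where it passed (limma adjusted p = 0.031). Ptpn11 stands in this list, but its product is not known only as a brake, so no direction of signalling is read from it. Socs2 and Cish, suppressors that STAT5 is known to turn on, were below background. Cish was at 4.76, 4.99 and 4.83 in CREB3L1 samples, against 4.25, 4.67 and 4.33 in untransfected samples, close under the level. Its groups did not overlap, and the difference of 0.45 ± 0.13 (SE) did not pass the test (limma adjusted p = 0.290). A second, dimmer Cish probe set gave 0.01 ± 0.03 (SE) with overlapping groups. The list's median difference was 0.09, against -0.01 over all genes, of which 2.1% passed.

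The milk protein genes measured were silent, and Csn1s2a, Csn1s2b, Ltf and Btn1a1 of this list were not measured. Csn2, beta-casein, averaged 2.14 ± 0.09 in CREB3L1 cells and 2.17 ± 0.05 in untransfected cells (SD, n = 3 each), and Csn1s1, Csn3, Wap and Lalba were likewise below background, as was Elf5, the transcription factor of milk-secreting cells. Of 19 measured mammary targets, 5 were above background, 0 rose and 1 fell, against 0.577% and 1.52% of all genes. The gene that fell was Bcl2l1, which encodes the survival protein BCL-XL, at 8.02, 7.83 and 7.89 in CREB3L1 samples, against 8.45, 8.40 and 8.45 in untransfected samples. Its difference was -0.52 ± 0.06 (SE; limma adjusted p = 0.0209), and its other 2 probe sets were below background in both groups. The call was lost when any 1 untransfected array was left out (limma adjusted p = 0.108, 0.100 and 0.109) and without CREB3L1 replicate 2 (0.0762), and over 12 alternatives the adjusted p ran from 0.0195 to 0.14.

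**Figure D4:**
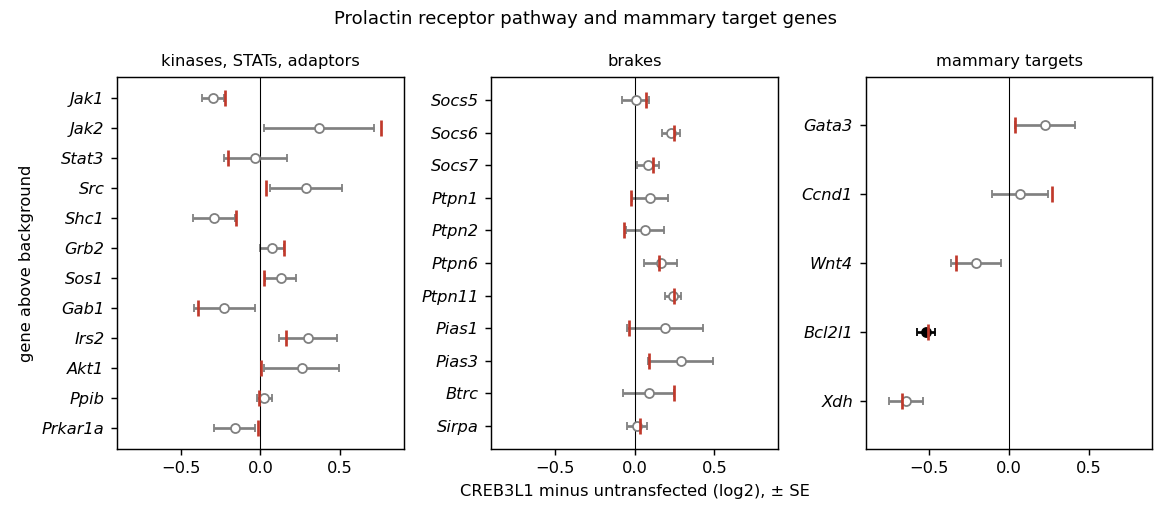
Log2 differences (CREB3L1 minus untransfected, with SE, n = 3 per group) for genes above background in the 3 lists of receptor signalling, brakes and mammary targets. The filled point, Bcl2l1 at -0.52, passed the test, open points did not, and red ticks give the difference without CREB3L1 replicate 3, which moves Jak2 the farthest, to 0.76.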

How the data were processed

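The authors' deposited table holds log2 expression values of 6 arrays, and the submitters' processing notes name Partek 6.6 and RMA. No source used here gives the background settings or the log base, and values of 0.27 to 17.2 were taken as log2. RMA evens out array distributions, which can hide a shift common to most genes. Groups came from the label of what was transfected, and replicates were numbered in deposit order, unpaired. Of 31099 probe sets, 57 controls were set aside. The platform annotation gave 1 symbol to 20826 probe sets, several to 436 and none to 9780, and 0 symbols changed through the RefSeq table. A probe set ending in _a_at, _s_at or _x_at can read several transcripts, and probe sets of close paralogs may share signal.

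All 31042 probe sets were fitted with limma 3.58.1 in R 4.3.3 (1 mean per group, eBayes, two-sided, Benjamini-Hochberg adjustment, threshold 0.05), checked on simulated data. A gene in a list was read by its brightest probe set. The members and lists were chosen with earlier results of these data known. Named genes were every member and measured family gene, up to 5 called genes of each signalling list or the 2 of smallest p, 7 fixed pathway genes, the 5 profiles most like Prl8a9 and 3 neighbours on each side. Promoter windows were aligned globally (match 1, mismatch 0, gap opening -2, extension -0.5). Alternatives were other normalisations, variance models, a filter on dim probe sets, other background levels, the mean of a gene's probe sets and leaving out each array. With 3 arrays per group, their number limits the precision.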

Additional observations from a re-analysis of the deposited data

How the results depend on the processing

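The Prl8a9 difference ran from 2.81 to 2.93 over 8 alternatives, and the 2 members above background stayed 2 of 10 probe sets at levels of 4 and 6, under both other normalisations and without any 1 array. The count of members called lower, 1 (Prl5a1), was 0 in the ordinary test and 0 to 1 without any 1 array (0 without untransfected replicate 2, CREB3L1 replicate 1 or CREB3L1 replicate 2). Calls over all 14217 genes moved with the setting too, from 82 higher and 216 lower with 6 arrays to 287 and 526 without CREB3L1 replicate 3. The same counts for the settings that lost the Prl5a1 call are not given here. Since the members were also chosen on this comparison, the member counts are no evidence for or against the Prl5a1 difference. That difference was -0.89 after quantile normalisation, and from -1.09 to -0.94 without any 1 array. The probe set shared by Prl8a5 and Prl8a4, outside those 10, lies above the level of 4. The count of other family genes called higher, 0, was 1 (Prl8a7, adjusted p = 0.0451) with dim probe sets left out, where fewer probe sets are tested, 1 with each gene's probe sets averaged, and 0 to 1 without any 1 array (1 without CREB3L1 replicate 3). Without any 1 array the counts called higher were 0 to 1 for receptor signalling (Jak2) and 0 to 1 for mammary targets (Ccnd1, adjusted p = 0.0432), in both cases 1 without CREB3L1 replicate 3. The count of mammary targets called lower, 1 (Bcl2l1), was 0 with a mean-variance trend (adjusted p = 0.140), 0 in the ordinary test (0.111), 0 with each gene's probe sets averaged, and 0 to 1 without any 1 array. The cause of these changes was not tested. No result changed sign past its threshold. No paired analysis was possible because the labels give the groups no shared replicate numbers.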

Other observations

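Values chosen after they were seen concern mammary targets that did not pass the test with 6 arrays. Xdh, which encodes xanthine dehydrogenase, an enzyme and milk fat globule protein, was at 10.19, 10.25 and 10.29 in CREB3L1 samples, against 10.73, 10.83 and 11.12 in untransfected samples. Its groups did not overlap, and the difference of -0.65 ± 0.11 (SE) had a limma adjusted p of 0.0751, and of 0.0542 without CREB3L1 replicate 3. Ccnd1, the cyclin D1 gene, gave 0.22 ± 0.03 on its dimmest probe set, with no overlap (limma adjusted p = 0.0580), and it passed without CREB3L1 replicate 3, at 0.24 (limma adjusted p = 0.0265). Its brightest probe set gave 0.07 ± 0.17, and 0.27 without that array (limma adjusted p = 0.0432). There CREB3L1 replicate 3 lay at 13.77 and the other 2 CREB3L1 samples at 14.38 and 14.35, against 14.11, 14.15 and 14.05 in untransfected samples. The remaining Ccnd1 probe set gave 0.06 ± 0.09 (SE) with overlapping groups. Without CREB3L1 replicate 3 it gave 0.125 and did not pass (limma adjusted p = 0.741).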
